A study of Mus musculus with 8 samples.

Results

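The genes of cholesterol synthesis and sterol regulation were examined in the cortex of mice at postnatal day 3. They are 29 genes chosen by name, 18 enzymes of the synthesis pathway and 11 genes that sense, regulate or move sterols, out of 48709 genes in the count files. All 29 were found, and all 29 passed the filter on low counts that left 16525 genes for testing. RNA was sequenced from 4 dcKO_hGFAP-Cre and 4 control cortices, all on a C57BL/6J background. The mutants, as the study's methods give them, carried both floxed copies of BAF155 (gene Smarcc1) and BAF170 (gene Smarcc2), the scaffolding subunits of the BAF chromatin remodelling complex, together with hGFAP-Cre, used to delete them in progenitors of the dorsal telencephalon. The methods give controls as carrying 1 floxed and 1 normal copy of each gene and the same Cre. By that description both groups share the driver and the controls are heterozygous for the deletion where it acts. These genotypes are stated for matched brain sections, and the methods on RNA sequencing give none. The mutants die soon after birth. The sample titles call the sequenced controls WT, so their genotype is not certain.

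Cholesterol is made from acetyl-CoA through mevalonate and the isoprenoid farnesyl diphosphate to squalene, which is closed to lanosterol and trimmed to cholesterol. The transcription factor SREBP2 (gene Srebf2) drives these genes. Its precursor is held in the endoplasmic reticulum by SCAP and the INSIG proteins when sterol is plentiful and is released when sterol is scarce. Oxysterols and late synthesis intermediates activate the LXR receptors, which drive genes of sterol efflux. The brain makes nearly all of its own cholesterol, because plasma lipoproteins do not cross the blood-brain barrier, and synthesis is high in the young brain, in growing neurons, astrocytes and myelinating oligodendrocytes.

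The promoters of 6 of these genes are shown first, since SREBP2 acts through short elements near the start site and the results below differ between these genes. The sequences are from RefSeq (build GRCm38.p6), run 5′ to 3′ on the strand of the gene, and stop where the first annotated exon begins. Capitals mark an exact match to any of 4 motifs searched on both strands, and sites spelled otherwise stay in lower case. The sterol regulatory element, which SREBPs bind, was spelled TCACNCCAC. The CCAAT box, which NF-Y binds, reads ATTGG on the other strand. The E-box was spelled CACGTG. The direct repeat that LXR binds was searched as copies of AGGTCA with 4 letters between them, where each copy could also be spelled AGTTCA. No matches of different motifs overlapped in these stretches. Hmgcs1, Mvd and Nsdhl encode enzymes, Srebf2 and Insig1 control them, and Abca1 is an efflux pump.
Hmgcs1 (chr13:119690151-119690350, + strand): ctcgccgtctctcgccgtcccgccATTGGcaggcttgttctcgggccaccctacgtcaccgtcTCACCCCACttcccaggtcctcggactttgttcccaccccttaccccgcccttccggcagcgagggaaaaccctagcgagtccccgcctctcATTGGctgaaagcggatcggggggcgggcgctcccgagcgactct
Mvd (chr8:122443423-122443622, - strand): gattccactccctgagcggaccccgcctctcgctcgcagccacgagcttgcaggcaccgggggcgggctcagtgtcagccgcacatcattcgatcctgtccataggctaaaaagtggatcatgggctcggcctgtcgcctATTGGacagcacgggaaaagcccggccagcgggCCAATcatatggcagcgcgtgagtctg
Nsdhl (chrX:72918412-72918520, + strand): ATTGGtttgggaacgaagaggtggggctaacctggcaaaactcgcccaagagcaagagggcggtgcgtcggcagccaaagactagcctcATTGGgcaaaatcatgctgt
Srebf2 (chr15:82147019-82147180, + strand): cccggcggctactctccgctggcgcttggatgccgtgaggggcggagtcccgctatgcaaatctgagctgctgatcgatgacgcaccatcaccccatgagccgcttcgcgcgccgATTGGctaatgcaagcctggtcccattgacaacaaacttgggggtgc
Insig1 (chr5:28071163-28071362, + strand): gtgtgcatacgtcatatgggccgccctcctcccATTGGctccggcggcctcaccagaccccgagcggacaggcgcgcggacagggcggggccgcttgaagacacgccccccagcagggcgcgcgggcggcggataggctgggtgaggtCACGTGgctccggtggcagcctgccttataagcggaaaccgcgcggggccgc
Abca1 (chr4:53159896-53160095, - strand): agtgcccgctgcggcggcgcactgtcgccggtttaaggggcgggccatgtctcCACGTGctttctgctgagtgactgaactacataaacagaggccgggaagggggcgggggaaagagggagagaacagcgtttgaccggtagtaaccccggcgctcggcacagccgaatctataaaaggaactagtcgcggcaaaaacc

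Deletion was read first, as a check of the labels. Smarcc1 was 159 ± 11.2 CPM in control and 81.2 ± 5.90 CPM in dcKO_hGFAP-Cre cortex (mean ± SD, n = 4 each), and Smarcc2 was 483 ± 14.7 against 283 ± 28.2 CPM, with no overlap between the groups for either gene. CPM is a gene's count scaled to the size of its library after TMM normalization, and it does not correct for gene length. The libraries held 21126713 to 32110285 counts, so that 3 counts correspond to between 0.0906 and 0.148 CPM. Mitochondrial genes took 2.06 to 3.23% of counts in control and 3.57 to 5.47% in mutant libraries. Markers of cortical identity were present in every library, with a summed level of 1721 to 1837 CPM in control and 949.7 to 1069 CPM in mutants. A list of 6 choroid plexus markers summed to 616 and 1178 CPM in dcKO 1 and dcKO 2, against 21.1 and 4.59 CPM in dcKO 3 and dcKO 4 and 4.15 to 13.6 CPM in controls. A list of 12 astrocyte markers summed to 1928 CPM in dcKO 3 and to 780 to 914 CPM in the other mutants. The results below that turn on these libraries are given with and without them.

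Sterol genes were lower in the mutant cortex. Of the 29 genes, 19 fell, 0 rose and 10 did not pass the test (edgeR's quasi-likelihood F test, adjusted p under 0.05 by Benjamini-Hochberg over all 16525 genes). Over all genes tested, 18.9% were called lower and 18.6% higher. The median log2 fold change was -0.48 over the 29 genes and 0.02 over all genes tested, and 24 of the 29 had a negative value. At an unadjusted p under 0.05 there were still 0 higher members, and 20 lower ones. DESeq2 and limma-voom each called 19 lower and 0 higher. Of the 29 genes, 19 had every mutant below every control and 0 had every mutant above. Over all genes tested, 17.7% were separated below and 16.7% above. The 19 separated genes were the 19 that fell, and both readings come from the same libraries. An exact two-sided permutation test on the CPM of each of these 19 genes gave p = 0.0286, the smallest that 4 against 4 samples allow. Separated groups fix that value, so it restates the separation and adds no support.

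**Figure D1:**
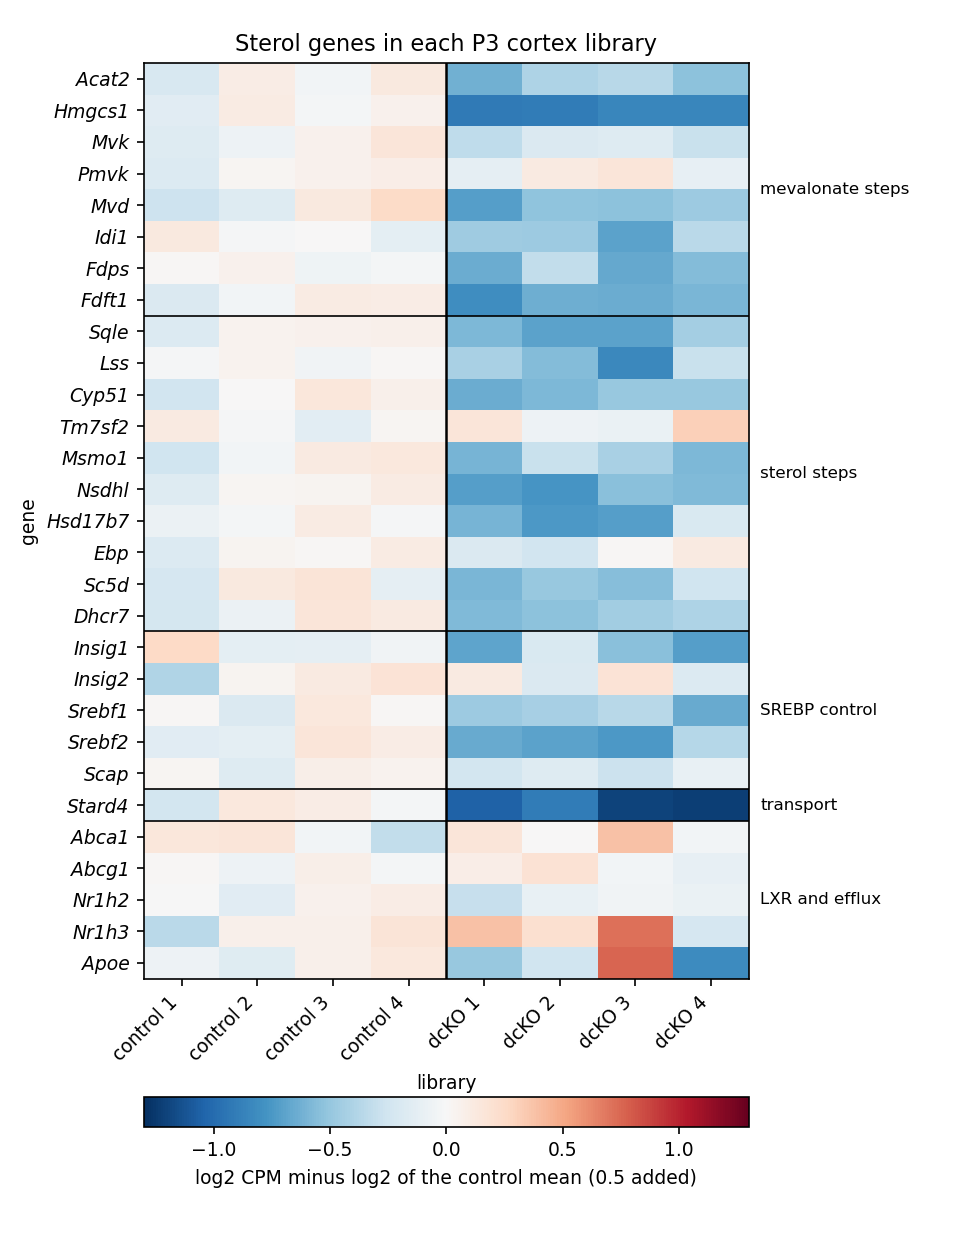
Heat map of the 29 sterol genes (rows, by role) in the 8 libraries (columns). Colour is the log2 CPM of a library minus the log2 of the control mean, blue for lower and red for higher. The mutant columns are blue over most synthesis enzymes, while the LXR and efflux rows are mixed and Apoe is red in dcKO 3 only.

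The synthesis enzymes fell together. The 18 enzymes summed to 2521, 2925, 2867 and 2964 CPM in the 4 controls and to 1711, 1762, 1788 and 1855 CPM in the 4 mutants, so the highest mutant was below the lowest control. The mean was 2819 ± 203 CPM in control and 1779 ± 59.9 CPM in mutants, 63.1% of control. Hmgcs1 alone supplied 1354 CPM of the control sum, and the other 17 enzymes went from 1465 ± 118 to 1043 ± 44.5 CPM, 71.2% of control. By gene, 15 of the 18 fell and 3 did not pass the test, with a median log2 fold change of -0.53.

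Among the 8 mevalonate steps, from acetyl-CoA to squalene, 7 fell. Hmgcs1 encodes the cytosolic HMG-CoA synthase that feeds the pathway. It stood at 1224, 1454, 1331 and 1407 CPM in controls and at 718, 723, 751 and 753 CPM in mutants. The mutant values lay close together, and none came near the lowest control. The log2 fold change was -0.88 (SE 0.069, edgeR adjusted p = 3.2e-06), or 0.544 of the control level. Fdft1, squalene synthase, was the next in size among these steps. It was 131, 146, 161 and 160 CPM in controls and 85.0, 96.2, 95.5 and 98.5 CPM in mutants, a log2 fold change of -0.67 (SE 0.086, edgeR adjusted p = 0.000104). The groups were again apart.

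Acat2, Mvd, Idi1 and Fdps also fell. Mvd, the mevalonate diphosphate decarboxylase, went from 69.5, 74.5, 91.5 and 99.2 CPM in controls to 50.6, 58.1, 57.8 and 60.4 CPM in mutants (log2 fold change -0.56, edgeR adjusted p = 0.00242). Fdps, which makes farnesyl diphosphate, had a log2 fold change of -0.56 (SE 0.115), and Idi1, the isomerase that precedes it, of -0.54 (SE 0.151). Acat2, the acetyl-CoA acetyltransferase that opens the route, had -0.48 (SE 0.092). These 4 genes were lower in every mutant than in any control.

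The kinases that phosphorylate mevalonate had the values nearest 0 among these 8 steps. Mvk, mevalonate kinase, was 58.6 to 73.4 CPM in controls and 52.1 to 58.5 CPM in mutants. Its highest mutant, 58.54 CPM, lay just below its lowest control, 58.63 CPM, and its log2 fold change was -0.24 with an edgeR adjusted p of 0.045, which did not hold in 10 of 16 other ways of fitting the data. The adjusted p of Mvk was 0.0507 with the lane as a block and 0.0697 with the replicate number as a block in edgeR. Pmvk, phosphomevalonate kinase and the next enzyme in line, was 47.9, 55.0, 56.5 and 57.5 CPM in controls and 49.9, 58.8, 60.7 and 50.3 CPM in mutants. Its groups overlapped, and its log2 fold change was 0.02 (SE 0.095, edgeR adjusted p = 0.901).

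Of the 10 sterol steps, from squalene to cholesterol, 8 fell. Sqle, squalene epoxidase, a control point of the pathway, was 225, 263, 263 and 266 CPM in controls and 169, 157, 157 and 187 CPM in mutants. The log2 fold change was -0.60 (SE 0.085, edgeR adjusted p = 0.00022). Nsdhl, a dehydrogenase that acts in removal of the methyl groups at carbon 4, was 63.8, 73.1, 73.4 and 77.1 CPM in controls and 43.6, 41.95, 49.0 and 48.2 CPM in mutants, and had the most negative log2 fold change of these 10 steps, -0.65 (SE 0.088, edgeR adjusted p = 0.000156). In both genes all mutants were below all controls.

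Another 6 of the sterol steps fell. Lss, which closes the ring to lanosterol, had a log2 fold change of -0.51 (SE 0.103), with its lowest mutant value in dcKO 3 at 68.8 CPM against 120 to 127 CPM in controls. Cyp51, the lanosterol demethylase, had -0.56 (SE 0.090), and Msmo1, which oxidizes the methyl groups at carbon 4, had -0.47 (SE 0.103). Hsd17b7, a reductase that works beside Nsdhl, had -0.56 (SE 0.122). At the end of the route Sc5d, the lathosterol oxidase, had -0.47 (SE 0.111), and Dhcr7, a late reductase, had -0.49 (SE 0.093). In each of the 6 the mutants lay below the controls.

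Tm7sf2 and Ebp, whose products act in the middle of the sterol steps, did not pass. Tm7sf2, a sterol reductase, was 41.9, 38.3, 35.03 and 39.3 CPM in controls and 43.1, 36.7, 36.4 and 47.9 CPM in mutants, and the highest library of all was dcKO 4 (log2 fold change 0.09, SE 0.105, edgeR adjusted p = 0.53). Ebp, a sterol isomerase, was 8.65, 10.1, 9.96 and 10.7 CPM in controls and 8.55, 8.18, 9.96 and 10.7 CPM in mutants, so the groups covered nearly the same range (log2 fold change -0.07, SE 0.129, edgeR adjusted p = 0.693).

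**Figure D2:**
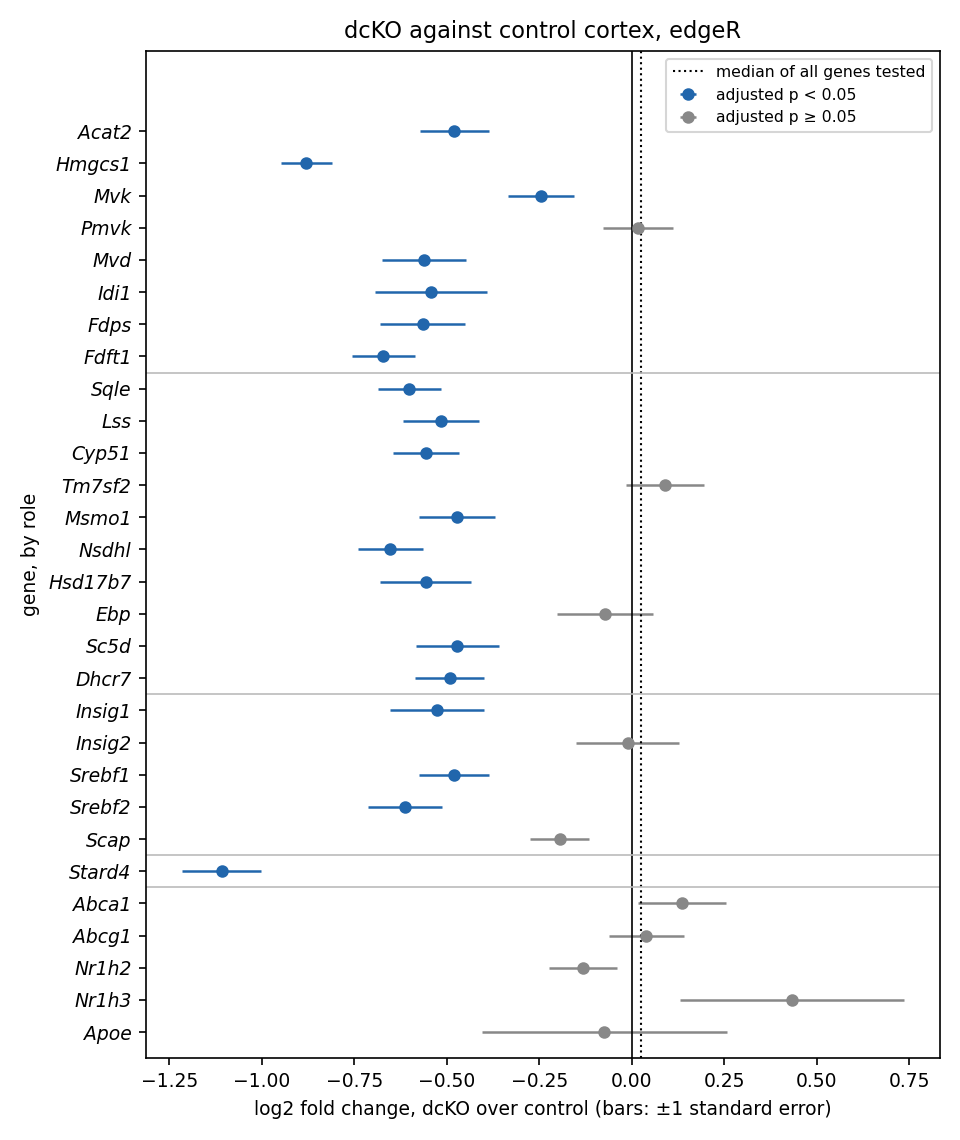
Log2 fold change of dcKO_hGFAP-Cre over control for each of the 29 genes, by role, with bars of 1 standard error (edgeR, n = 4 each). Blue points passed an adjusted p of 0.05, grey points did not, and the dotted line is the median of all genes tested, 0.02. The 19 blue points all lie below 0, with Stard4 and Hmgcs1 farthest.

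Genes that fell were set beside neighbours in the pathway that did not pass, within each library, as the log2 ratio of the pair. The 5 pairs were chosen after their values were seen, so the ratios are a description with no test. The Hmgcs1 to Pmvk ratio was lower by 0.89 in mutants, the Sqle to Tm7sf2 ratio by 0.68, the Nsdhl to Ebp ratio by 0.57 and the Srebf2 to Scap ratio by 0.42, and the mutants were below the controls in each. The Insig1 to Insig2 ratio differed by -0.53, and its groups overlapped.

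Of the 5 genes of SREBP control, 3 fell. Srebf2, which encodes SREBP2 and is itself an SREBP target, was 310, 315, 386 and 368 CPM in controls and 218, 212, 205 and 266 CPM in mutants. The mutants were all below the controls, with dcKO 4 the nearest, and the log2 fold change was -0.61 (SE 0.101, edgeR adjusted p = 0.000622). Srebf1, whose products lean to fatty acid synthesis, was 62.7, 54.5, 68.2 and 62.5 CPM in controls and 44.6, 45.7, 48.3 and 39.2 CPM in mutants (log2 fold change -0.48, SE 0.094, edgeR adjusted p = 0.0019). Insig1, the sterol-sensitive INSIG, was 91.9, 70.3, 70.8 and 74.3 CPM in controls and 47.5, 67.0, 52.4 and 46.4 CPM in mutants. Control 1 stood high and dcKO 2 came close to the lowest control, and the log2 fold change was -0.53 (SE 0.127, edgeR adjusted p = 0.0065).

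The remaining pair of this group did not pass. Insig2 was 17.1 to 25.6 CPM in controls and 19.8 to 25.8 CPM in mutants (log2 fold change -0.01, SE 0.139, edgeR adjusted p = 0.958). Scap, the escort that carries SREBP precursors to the Golgi, was 112, 98.2, 116 and 114 CPM in controls and 93.0, 98.0, 90.2 and 103 CPM in mutants. Only control 2 lay within the mutant range, and its log2 fold change was -0.19 (SE 0.079, edgeR adjusted p = 0.0686). Without control 2 the adjusted p of Scap was 0.0309, and without dcKO 4 it was 0.04.

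Stard4 had the most negative log2 fold change of the 29 genes. It encodes a soluble carrier that moves cholesterol between membranes, and it is known as an SREBP2 target. It was 49.1, 64.0, 62.1 and 57.1 CPM in controls and 27.7, 30.6, 24.9 and 24.7 CPM in mutants. The highest mutant was well under the lowest control, and the log2 fold change was -1.11 (SE 0.107, edgeR adjusted p = 1.3e-05), or 0.464 of the control level.

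**Figure D3:**
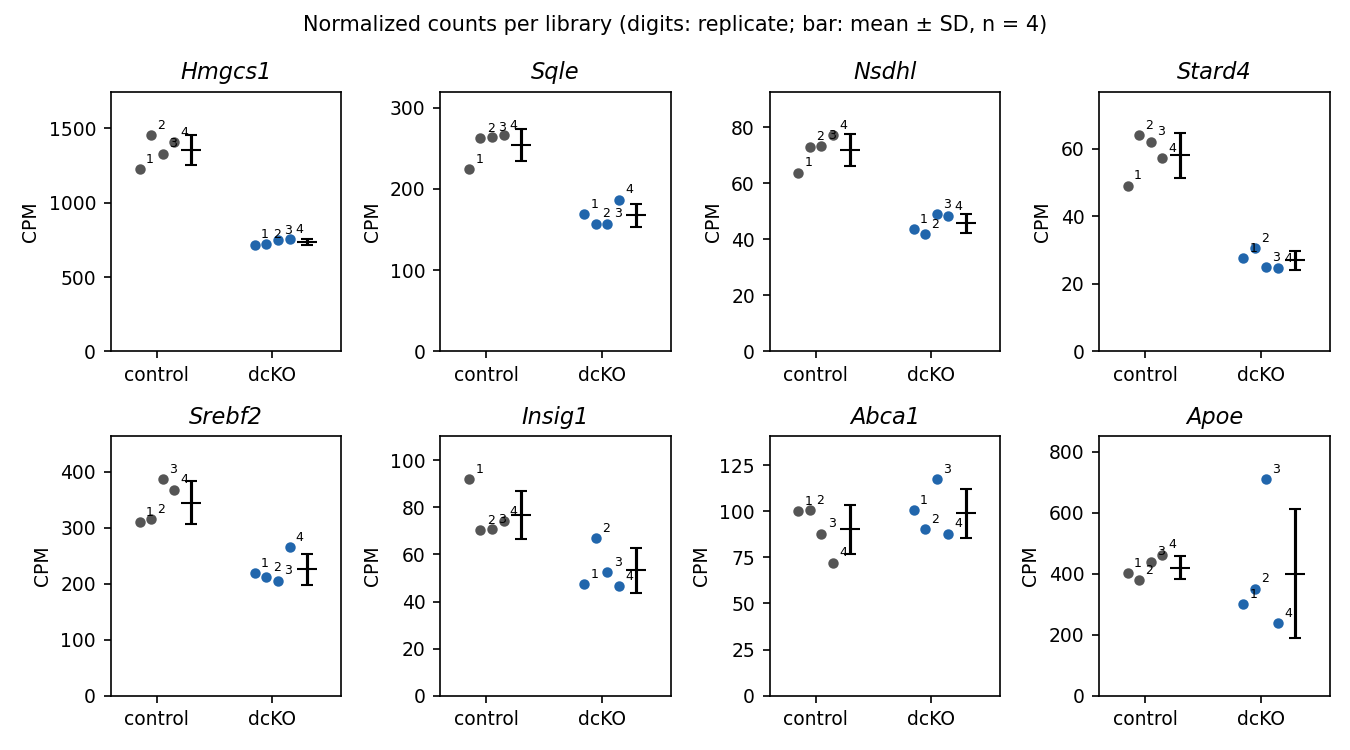
CPM of 8 sterol genes in each library, with axes from 0. Dots are libraries with their replicate number, and bars are the mean ± SD (n = 4). The groups are apart in Hmgcs1, Sqle, Nsdhl, Stard4, Srebf2 and Insig1 and overlap in Abca1 and Apoe, where dcKO 3 is the highest library.

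None of the 5 LXR and efflux genes passed the test in either direction, and their median log2 fold change was 0.04. Abca1, the pump that loads cholesterol onto apolipoproteins and a known LXR target, was 100, 101, 87.8 and 72.1 CPM in controls and 101, 90.2, 117 and 87.9 CPM in mutants (log2 fold change 0.14, SE 0.119, edgeR adjusted p = 0.395). Abcg1, another efflux transporter, was 17.8 to 19.6 CPM in controls and 17.3 to 21.3 CPM in mutants (log2 fold change 0.04, SE 0.101). The groups of both genes overlapped. Nr1h2, which encodes LXR beta, was 34.01 to 40.4 CPM in controls and 30.7 to 36.6 CPM in mutants (log2 fold change -0.13, SE 0.091). Nr1h3, which encodes LXR alpha, was scarce at 0.644 to 1.15 CPM in controls and 0.755 to 1.91 CPM in mutants with a log2 fold change of 0.43 and an SE of 0.302, from 241 counts over all 8 libraries.

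Apoe, the main lipoprotein carrier of the brain, made chiefly by astrocytes, depended on 1 library. It was 401, 378, 440 and 463 CPM in controls and 299, 352, 709 and 238 CPM in mutants. dcKO 1, 2 and 4 were below every control and dcKO 3 was above all controls. With all libraries the log2 fold change was -0.07 (SE 0.331, edgeR adjusted p = 0.881), and without dcKO 3 it was -0.51 (SE 0.119, edgeR adjusted p = 0.0058), which raises the members that fell to 20. Lcat, the enzyme that esterifies cholesterol on lipoproteins and also a product of astrocytes, was looked at after its values were seen. It was 3.45 to 4.72 CPM in controls and 0.299, 0.297, 4.71 and 0.362 CPM in mutants, so dcKO 3 alone stood at the control level. Its log2 fold change was -1.56 (edgeR adjusted p = 0.207) with all libraries and -3.71 (edgeR adjusted p = 6.84e-07) without dcKO 3.

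In the synthesis enzymes dcKO 3 stood among the other mutants. Their summed level in it, 1788 CPM, lay between those of the other mutants, and the median of the 18 log2 differences from the control mean was -0.60, -0.51, -0.54 and -0.42 in dcKO 1 to dcKO 4. The astrocyte list, with 1442 to 1579 CPM in controls, had 3 of 12 genes lower with all libraries and 10 of 12 without dcKO 3. With all libraries, 18.9% of all genes tested were lower. Without dcKO 3, 7 mevalonate and 8 sterol steps fell, the counts found with it. Without dcKO 1 and dcKO 2, the libraries with high choroid plexus markers, 15 of the 19 members still passed, with a median log2 fold change of -0.45 over the 29.

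**Figure D4:**
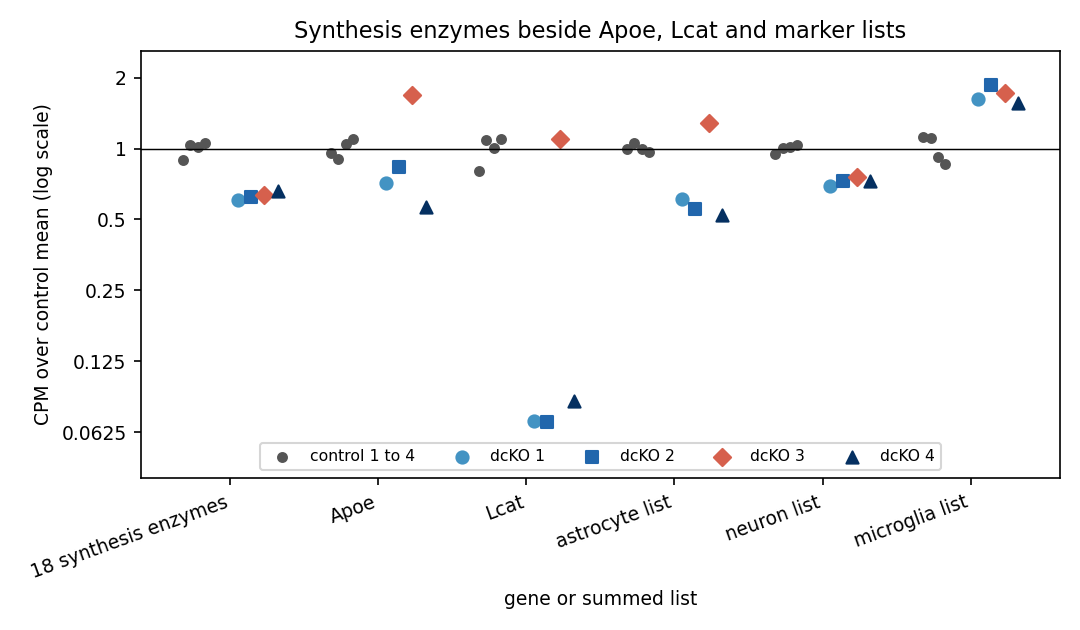
CPM of each library over the control mean, on a log axis, for the summed 18 synthesis enzymes, Apoe, Lcat and 3 summed marker lists. Grey dots are controls and coloured symbols are the mutants. The mutants lie together for the enzymes, at 1711 to 1855 CPM summed, while dcKO 3 stands apart in Apoe, Lcat and the astrocyte list.

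Other cell type lists were read beside these results, and they went different ways. The counts below stand beside 18.9% lower and 18.6% higher over all genes tested. The neuron list had 9 of 10 genes lower and summed to 12150 to 13230 CPM in controls and 8820 to 9634 CPM in mutants. The oligodendrocyte precursor list had 8 of 10 lower (657 to 710 against 376 to 437 CPM), the myelinating oligodendrocyte list 6 of 9 tested lower (89.1 to 96.7 against 54.4 to 75.3 CPM, Opalin too low to test), and the endothelial list 3 of 8 lower (193 to 251 against 109 to 191 CPM). The microglia list had 8 of 10 higher (140 to 182 against 255 to 304 CPM). The choroid plexus list had 2 of 6 higher and the erythroid list 0 of 5 called. In these bulk libraries, fewer cells of a type and less RNA per cell cannot be told apart, and the part of cell composition in the sterol result was not tested. The libraries ran in 3 sequencing lanes per the labels, with 2 controls and 2 mutants in lane 5 and 1 of each in lanes 6 and 7. All 19 genes that fell were lower in mutants within each of the 3 lanes. Since every mutant was below every control in these genes, that result was fixed by the separation and adds no support.

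Neighbouring lipid pathways were read from a list of 47 other genes. Of these, 19 fell and 3 rose, with a median log2 fold change of -0.25. Over all genes tested, 18.9% were lower and 18.6% higher. Fatty acid synthesis, which SREBP1 drives, had 10 of 11 genes lower and a median of -0.68, and its summed level was 3421 to 3837 CPM in controls and 1970 to 2287 CPM in mutants. Scd1, the stearoyl-CoA desaturase, was 75.4, 94.1, 70.3 and 76.1 CPM in controls and 26.4, 27.4, 32.3 and 24.2 CPM in mutants, with a log2 fold change of -1.52 (SE 0.115, edgeR adjusted p = 2.64e-06). Fads2, a desaturase of polyunsaturated fatty acids, had a log2 fold change of -0.98 (SE 0.119). In both genes the groups were apart. Acly, which makes cytosolic acetyl-CoA, was the gene that did not pass (log2 fold change -0.25, edgeR adjusted p = 0.0544).

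Sterol transport and turnover had 5 of 16 genes lower and 1 higher, beside 18.9% lower and 18.6% higher over all genes tested. Mylip, an LXR-driven ligase that degrades lipoprotein receptors, was 22.6, 28.6, 25.7 and 23.5 CPM in controls and 10.1, 9.79, 13.7 and 7.64 CPM in mutants (log2 fold change -1.29, SE 0.159, edgeR adjusted p = 8.26e-05). The groups were apart. Npc2, which takes cholesterol out of the lysosome, was 86.7, 82.2, 89.2 and 94.6 CPM in controls and 112, 129, 130 and 99.4 CPM in mutants, a log2 fold change of 0.42 (SE 0.094, edgeR adjusted p = 0.00457), with every mutant above every control.

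The isoprenoid branches, which draw farnesyl diphosphate away from sterols, had 2 of 10 genes lower and 2 higher, shares near the 18.9% and 18.6% of all genes tested. Coq2, of ubiquinone synthesis, was 38.01, 32.98, 32.04 and 37.3 CPM in controls and 43.7, 53.9, 48.8 and 44.9 CPM in mutants (log2 fold change 0.45, SE 0.096, edgeR adjusted p = 0.00341). Fnta, a subunit of protein farnesyltransferase, rose by less (log2 fold change 0.25, edgeR adjusted p = 0.0423). The list of SREBP processing and sterol-regulated degradation had 2 of 10 lower, also near the share of all genes, and 0 higher, with a median of -0.13.

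**Figure D5:**
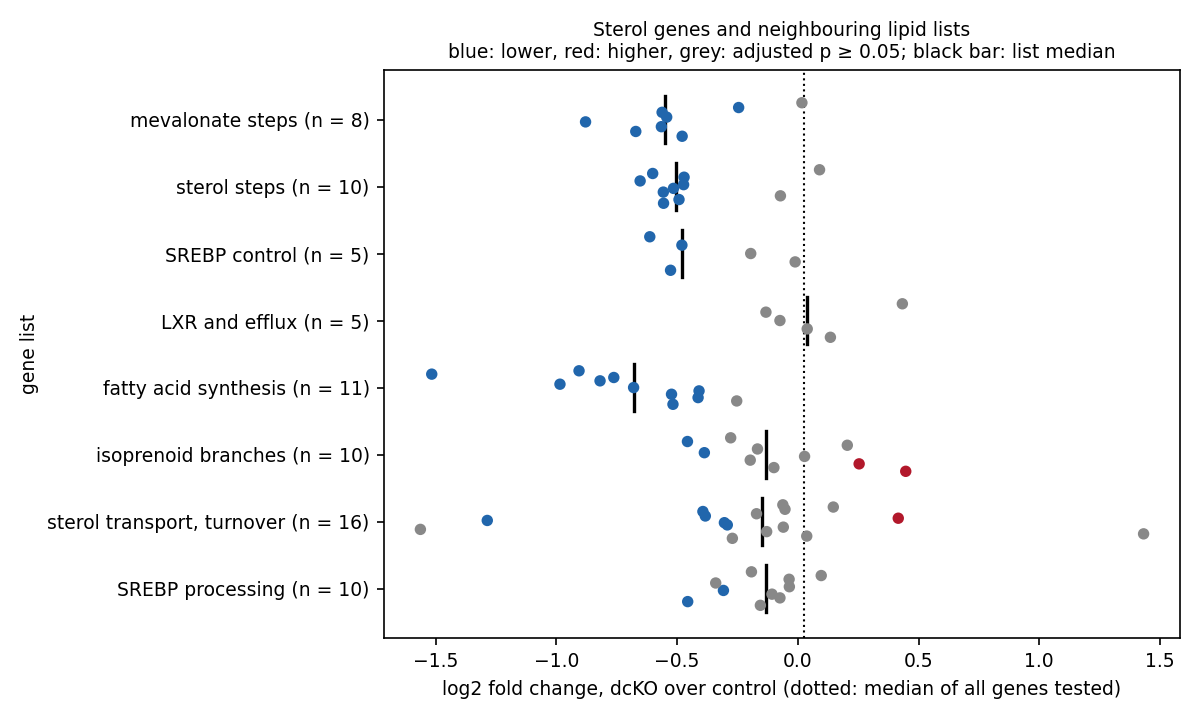
Log2 fold change of dcKO_hGFAP-Cre over control for each gene in 4 roles of the sterol genes and in 4 neighbouring lipid lists (rows, with the number of genes). Points are genes, blue for lower, red for higher and grey for not passing an adjusted p of 0.05, and black bars are list medians. The medians of the synthesis steps and fatty acid synthesis lie at or below -0.50, and those of the other neighbouring lists at -0.15 to -0.13.

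Levels between genes were compared per length, as TPM computed from the counts and the summed exon length. That length covers every annotated exon and can exceed the transcript that is made, so TPM can be too low in some genes. For Fdps it was 4208 bases, against 1382 in its longest coding transcript. The order of genes below is therefore approximate. In controls Hmgcs1 was highest at 1128 TPM (1037 to 1230), above Apoe at 752 TPM, Acat2 at 211 TPM and Srebf2 at 183 TPM. Sqle at 175 TPM and Mvd at 172 TPM overlapped with Srebf2 in their ranges. The lowest were Idi1 at 5.82 TPM and Nr1h3 at 1.46 TPM. Acat2 and Idi1 have near-identical sequence in other genes, described below, so their levels and ranks are uncertain. In mutants Hmgcs1 fell to 607 TPM (558 to 656), whereas Pmvk was 121 TPM in each group.

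The promoters of 24 of the 29 genes were in the RefSeq table, each running from 250 bases before to 50 after the start site. A CCAAT box lay in a promoter of 14 of the 15 lower genes with a promoter and of 4 of the 9 genes without a call. Of tested genes with a promoter 42.3% (5100 of 12050) held one, and of all 32851 promoters 37.4%. Those 4 genes were the enzymes Pmvk, Tm7sf2 and Ebp, and Insig2. Scap, Abca1, Nr1h2, Nr1h3 and Apoe, the others without a call, held none. The box thus lay in enzymes with and without a call, and its split by call cannot be told apart from one by role. The sterol regulatory element, in the spelling searched, was matched in 1 of the 24 genes, Hmgcs1, with its first base at position -137. Of tested genes with a promoter 1.41% matched it, and of all promoters 1.24%. Elements spelled otherwise were missed, so genes without a match, Srebf2 among them, may still hold one. The E-box lay in 4 of the 15 lower genes, Insig1 among them, and in 2 of the 9 without a call, Abca1 and Scap, and 11.2% of tested genes with a promoter held it. Of all promoters, 7.15% did. The LXR repeat, as spelled, was matched in none of the 24, in 0 of 12050 tested genes with a promoter and in 9 of 32851 promoters. Other spellings were not searched, so the search cannot show that a promoter, that of Abca1 included, lacks an LXR site. Some genes have several promoters, which raises their chance of a match, and the members were chosen by pathway, so these shares are a description.

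Some of the counts may include reads of other genes, or lack reads that match several genes, because strand and the handling of such reads are not given. Exon bases are shared with another annotated gene in 10 of the 29 genes, for instance 774 bases of Fdft1 with Ctsb on the opposite strand, and 532 bases of Tm7sf2 with Vps51. Ctsb rose (log2 fold change 0.28, edgeR adjusted p = 0.0151) while Fdft1 fell. Acat2 is 97.7% identical to Acat3 over 1477 bases, Fdps has 5 near-identical copies and Idi1 has 2 pseudogenes at 97.7 to 100% identity, and Fdft1 has the pseudogene Gm6781 at 97.4% over 1249 bases, so the levels of Acat2, Fdps, Idi1 and Fdft1 are uncertain. Both Idi1 pseudogenes, Gm13502 and Gm35570, and the Fdps copy Gm43738 had 0 counts in every library, and Gm6781 had 45 counts over all libraries. Those zeros do not show that the counts of Idi1 and Fdps are complete, since reads shared with a copy may have been dropped, which was not tested. Of other Fdps copies, Gm3571 held 175 counts over all libraries (log2 fold change -0.82, edgeR adjusted p = 0.0353), Gm5873 76 and Gm8163 8. Acat3 held 116 counts over all libraries against 25229 for Acat2. Acat2 also matches Tcp1 in the opposite orientation, at 98.7% identity over 445 bases. Tcp1 held 55172 counts over all libraries and did not pass the test (log2 fold change 0.01, edgeR adjusted p = 0.912).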

How the data were processed

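RNA was sequenced from the P3 cortex of 8 mice, and the authors deposited raw counts per gene. Total RNA was isolated with TRIZOL, cDNA libraries were prepared with the TruSeq RNA Sample Preparation v2 Kit, reads were aligned to mm10 and counted with featureCounts. The aligner, its version, the annotation, the strand setting and the handling of reads with several matches are not given in the sources used here. No normalization was applied to the deposited counts.

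Groups were taken from the sample labels. Same-numbered control and mutant samples shared a sequencing lane per the labels, with numbers 1 and 2 in the same lane. No label or method ties the numbers to litters or animals, and the deviations of same-numbered samples correlated above 0.1 in 2 of 4 numbers. No 2 replicates agreed within sampling noise. Nothing says whether animals were pooled, so p-values measure the spread between these samples.

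Counts were tested with edgeR (version 4.0.16, R version 4.3.3) after TMM normalization and its default filter on low counts (minimum count 10), with robust quasi-likelihood F tests on all 16525 genes left and Benjamini-Hochberg adjustment at a threshold of 0.05. Standard errors were taken from the fold change and the F statistic. Single values were tested on CPM by two-sided exact permutation of the samples (70 arrangements). TPM was computed from summed exon lengths of GENCODE vM21, on the same build. Near-identical transcripts were searched with blastn (version 2.17.0), with at least 95% identity over 200 bases. Promoters were those of RefSeq. The test was tried on simulated counts with known changes.

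The alternatives were DESeq2 (version 1.42.0), limma-voom (version 3.58.1), DESeq2's size factors, library totals, other filters, the replicate number or lane as a block, a threshold of 0.01, and each replicate left out in turn. The fit without dcKO 1 and dcKO 2 was added after seeing the data. The 29 genes and all lists were chosen with earlier results of these data known. Named were the 29 genes, the deleted genes, the 3 largest rises and 3 largest falls past the threshold in the list of 47 lipid genes, and genes that could share reads. Lcat, Acly and Opalin were named after their values were seen. Some genes of the pathway are not reported here.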

Additional observations from a re-analysis of the deposited data

Results flagged for a closer look

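Sqle in control 1 stood apart from the other controls. It was 224.7 CPM there, and the nearest of the other 3 controls was 262.6 CPM and the farthest 266 CPM, so the gap took 0.919 of the range of the group. Every mutant was still below it. Of 58 groups examined, 1 was flagged, and 2.9 would be by chance.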

How the results depend on the processing

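In the 16 planned fits 18 to 20 of the 29 genes fell and 0 rose, and at a threshold of 0.01 the count was 17. Of the 19 called, 18 passed in each of the 16, and Mvk did not in 10. With each replicate left out in turn, 18 to 20 fell. Without dcKO 1 and dcKO 2, where 2 mutants remain, 15 of the 19 passed and Mvk, Idi1, Hsd17b7 and Sc5d did not, 10 of the 47 neighbouring lipid genes fell, and 1388 of all genes were higher and 1581 lower. At a threshold of 0.01, 1611 genes were higher and 1938 lower. With library totals the median of all genes shifted by 0.121, the split was 4584 higher to 2102 lower against 3074 to 3128, the median of the 29 genes was -0.359 and 6 of the 47 lipid genes rose. With the replicate block, 18 of the 29 fell, and 2932 genes were higher and 2982 lower in all. The same-number correlations were 0.178, -0.101, 0.193 and -0.06, so not every pair deviated together. Same-numbered samples share a sequencing lane, numbers 1 and 2 the same one, and no other pairing is stated. With the lane as a block, 18 of the 29 fell. Genes without a call changed sign in some fits, none of them past the threshold in the changed direction. With library totals Ebp was 0.05, Insig2 0.114 and Apoe 0.047, and Insig2 was 0.006 where each library had to hold 10 or more counts. Without dcKO 1 and dcKO 2, Ebp was 0.071, Insig2 0.009, Abcg1 -0.072 and Apoe 0.165. With each replicate left out, Pmvk ranged from -0.043 to 0.073, Insig2 from -0.128 to 0.059, Abcg1 from -0.023 to 0.098 and Apoe from -0.506 to 0.125. The cause of these shifts was not tested. Depth limits the scarce genes, such as Nr1h3 with 241 counts over all libraries.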
